A study of Mus musculus with 4 samples.

Results

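The type I interferon-stimulated genes were read in bone marrow-derived macrophages (BMDMs) that had been cultured with or without butyrate. The set was chosen by name, with earlier results of these data known, so the counts below are a description. It holds 39 genes of the interferon response, of which 36 were among the 16375 genes with a deposited value. Mx1, Mx2 and Ddx58 were not listed under these symbols, and the gene identifier of Ddx58 was listed as Rigi, which was not counted. The 4 groups, with 1 library each, were untreated and butyrate-treated cells of WT mice (WT control and WT butyrate) and of LNCKO mice (LNCKO control and LNCKO butyrate). Where 4 values of a gene are given in a row, they stand in this order. LNCKO stands for mice of the C57BL/6J background in which the long non-coding RNA gene lncLy6c was deleted with CRISPR-Cas9. Bone marrow cells of WT or LNCKO mice were grown into macrophages with M-CSF, and the butyrate groups received 500 µM butyrate, a short-chain fatty acid, for 24 h. The comparisons address whether butyrate changed the RNA of these genes in either genotype, and whether the genotypes differed. With 1 library per group no difference between groups could be tested, and all differences below are differences between libraries.

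Cells that sense viral nucleic acid make type I interferons, which bind a receptor on the same or neighbouring cells and lead to phosphorylation of Stat2. With Irf9, Stat2 is part of the factor ISGF3, which enters the nucleus and binds the interferon-stimulated response element (ISRE) in the promoters of its target genes. The targets encode sensors of foreign nucleic acid, proteins that block translation or replication of viral RNA, and the factors of the pathway itself, such as Irf7 and the feedback inhibitor Usp18. Macrophages keep a low level of this response without infection, through small amounts of interferon beta.

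The ISRE is the sequence by which ISGF3 finds its targets, and a few of the sites in the members' promoters are shown for that reason. The core searched was TTTC, any 2 bases and TTTC, or its reverse complement GAAA, any 2 bases and GAAA, in windows from 250 bases before to 50 bases after the start site (RefSeq, GRCm38.p6). A match was found in 16 of the 30 listed members that had a promoter in the table (53.3%) and in 486 of 12543 genes of the file (3.87%). At least 2 matches in 1 promoter were found in 8 members (26.7%) and in 38 genes of the file (0.303%). Windows of the same length for all 32841 promoters of the table held a match in 3.44%. The sites below are of members named in the results and are written 5′ to 3′ on the strand of the gene, with the searched core in capitals.

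Rsad2, chr12:26456553-26456582, minus strand: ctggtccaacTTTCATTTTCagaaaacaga
Ifit1, chr19:34640794-34640823, plus strand: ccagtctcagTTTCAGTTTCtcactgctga
Ifit3, chr19:34583363-34583392, plus strand: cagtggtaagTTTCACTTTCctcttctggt
Ifit3b, chr19:34607759-34607788, plus strand: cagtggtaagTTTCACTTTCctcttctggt
Stat2, chr10:128270266-128270295, plus strand: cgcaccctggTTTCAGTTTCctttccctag
Isg15, chr4:156200871-156200900, minus strand: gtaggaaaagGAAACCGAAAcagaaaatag
Bst2, chr8:71537577-71537606, minus strand: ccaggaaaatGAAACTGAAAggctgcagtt
Ifitm3, chr7:141010706-141010735, minus strand: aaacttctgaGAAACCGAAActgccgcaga

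The 30 bases printed for Ifit3 and Ifit3b are identical. No match lay in the window of Cmpk2, and Dhx58, Oas2, Parp14, Rtp4, Usp18 and Zbp1 had no entry in the promoter table. A match is a description of these letters and does not show that a factor is bound there.

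The deposited values are FPKM (fragments per kilobase of gene per 1000000 fragments), in which the length was that of the whole gene with its introns. The totals of the libraries, recovered from the values, ranged from 53363944 to 65521713 fragments, and each member had between 4886 and 114594 fragments in a library. All 10 macrophage markers were listed, with summed FPKM of 2842, 3834, 2460 and 1739. Within this sum Lyz2 held 1972, 2871, 1609 and 870, and Adgre1, the F4/80 antigen, was 6.40, 7.45, 6.63 and 5.86. The median log2 change of the macrophage markers with butyrate was 0.19 in WT (8 of 10 higher) and 0.015 in LNCKO (5 of 10). Over all 10959 genes whose mean FPKM reached 0.1, 39.3% were higher with butyrate in WT and 42.2% in LNCKO. Among other cell types, 7 of 8 plasmacytoid dendritic cell markers were listed with sums of 361, 329, 346 and 390 (Clec4c was not listed, and the list includes the member Bst2). Within these sums Bst2 held 181, 184, 168 and 203. The median log2 change of this list with butyrate was -0.35 in WT (2 of 7 higher) and 0.09 in LNCKO (5 of 7). The 7 B cell markers summed to 209, 164, 213 and 216, and the 10 markers of neutrophils and their precursors to 2759, 3218, 2407 and 2314. With butyrate the B cell markers had medians of -0.25 in WT (0 of 7 higher) and 0.003 in LNCKO (4 of 7). The neutrophil markers had medians of 0.16 (7 of 10) and -0.05 (2 of 10). Erythroid markers (6 of 7 listed) were higher in both LNCKO libraries, at 22.6 and 64.6 against 5.99 and 6.68 in WT, and mast cell and basophil markers were too, at 72.2 and 71.2 against 46.6 and 35.2. Markers of dendritic cells, T and NK cells and stromal cells summed to between 2.81 and 20.1 in each library. The part of these cells in the results was not tested, and in bulk RNA fewer cells of a type and less RNA per cell cannot be told apart. The 4 Y-linked genes read summed to 203 and 132 fragments in the WT control and butyrate libraries and 15373 and 20182 in the LNCKO ones, so that genotype and sex of the mice cannot be told apart in any genotype difference. No gene was listed as lncLy6c, and the loss of the targeted transcript was not analysed here. The names of both LNCKO libraries, with NC and R3, do not spell their conditions, and each LNCKO value rests on the sample titles.

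All 36 listed members were expressed in all 4 libraries. To compare levels between genes, fragments were divided by exon length instead of gene length and given as fragments per kilobase of exon per 1000000. On this scale Ifitm3, a membrane protein that hinders viral entry, had the highest mean level over the 4 libraries at 2035. It was followed by Bst2 (tetherin, which holds budding virus at the cell surface) at 653, Ifit3 at 576, the ubiquitin-like protein Isg15 at 468.6, Ifit2 at 422, Irf7 at 384 and Rsad2 (viperin) at 321. The lowest mean levels were 37.0 for the RNA sensor Ifih1 (MDA5), 35.1 for Irf9 and 31.7 for the ISG15 ligase Herc6. Exon length here joins the exons of all annotated transcripts. It covers 5386 of the 6460 bases of the Irf9 gene and all 3776 bases of the Irf7 gene. The levels of Irf9 and Irf7 are thus still divided by most or all of the gene, and their places in the order are uncertain. The order of neighbours such as Irf9 and Ifih1 rests on means that differ by less than their spread over the libraries, which was 32.5 to 40.5 for Irf9 and 35.2 to 37.6 for Ifih1. For any member, the ratio of the highest to the lowest library lay between 1.06 (Oas1a) and 1.601 (Ifit3b), with a median of 1.203. The spread between genes was thus far wider than the spread between libraries of a gene.

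**Figure D1:**
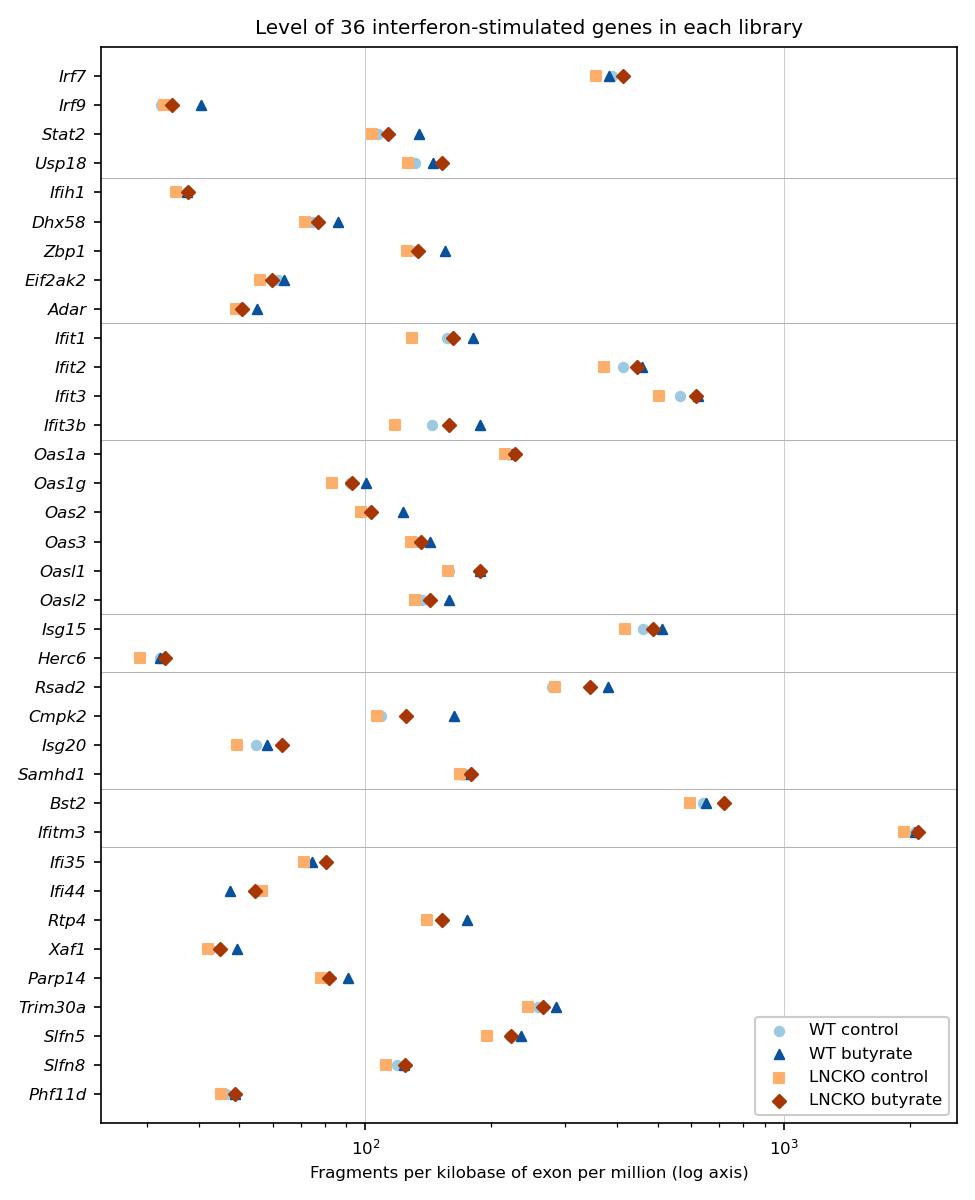
Level of each of the 36 listed members in the 4 libraries, in fragments per kilobase of exon per 1000000 on a logarithmic axis, grouped by role. Symbols are single libraries, and the mean levels run from 31.7 (Herc6) to 2035 (Ifitm3) while the libraries of a gene differ by at most 1.601 times.

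Butyrate was accompanied by a small and broad difference in WT macrophages. Of the 36 members, 29 were higher in WT butyrate than in WT control, where 39.3% of all 10959 genes whose mean FPKM reached 0.1 were higher, and 38% of the 3709 genes whose mean FPKM reached 3, as that of every listed member did. The median of the members was 0.14 on the log2 scale of FPKM + 0.1 (1.10-fold), against -0.05 for all genes, and members ranged from -0.22 to 0.58. No member was past 1.5-fold in either direction, where 2.68% of all genes were past it upwards and 1.83% downwards. Past 1.2-fold, a limit added after seeing the data, 6 members were higher, namely Cmpk2, Rsad2, Ifit3b, Oas2, Stat2 and Irf9 (10% of all genes and 6.34% of those with an FPKM of 3 or more), and 0 were lower (12.5% and 8.65%). These 6 are 16.7% of the members.

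In LNCKO macrophages the same direction held for 35 of the 36 members, where 42.2% of all genes, and 45.3% of those with an FPKM of 3 or more, were higher with butyrate. The median of the members was 0.13 (1.09-fold) against -0.02 for all genes, with a range from -0.06 to 0.43. Again no member was past 1.5-fold, where 1.35% of all genes were past it upwards and 0.766% downwards. Past 1.2-fold 7 members were higher, namely Ifit3b, Isg20, Ifit1, Ifit3, Rsad2, Usp18 and Bst2 (4.83% of all genes and 2.08% of those with an FPKM of 3 or more), and 0 were lower (4.35% and 1.32%). These 7 are 19.4% of the members. The WT and LNCKO comparisons share no library. In both, 29 members were higher with butyrate (18.7% of all genes and 20% of those with an FPKM of 3 or more), 2 of them (Rsad2 and Ifit3b) past 1.2-fold in both (1.72% of all genes), and 1 member, Ifi44, was lower in both. Across the 36 members the changes in the 2 genotypes had a Pearson correlation of 0.34 and a Spearman correlation of 0.19, and over all 10959 genes 0.078 and 0.086. Genes are not independent replicates, and both values are given as a description.

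**Figure D2:**
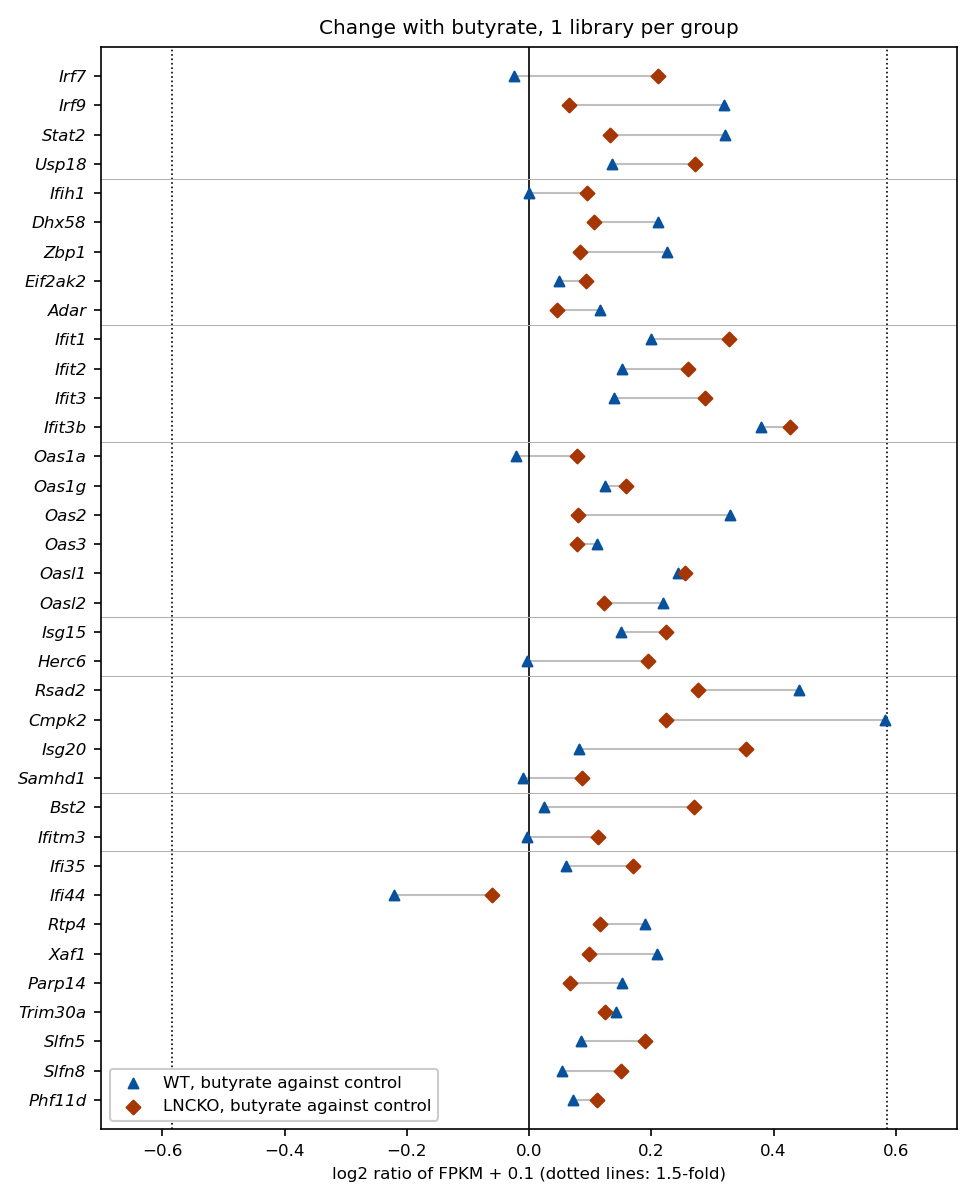
Butyrate change of each of the 36 members in WT and in LNCKO macrophages, as log2 of the ratio of FPKM + 0.1, grouped by role, with 1 symbol per genotype and dotted lines at 1.5-fold. Most points lie above zero in both genotypes, Cmpk2 in WT is the highest (0.58, just inside the dotted line), and Ifi44 lies below zero in both.

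**Figure D3:**
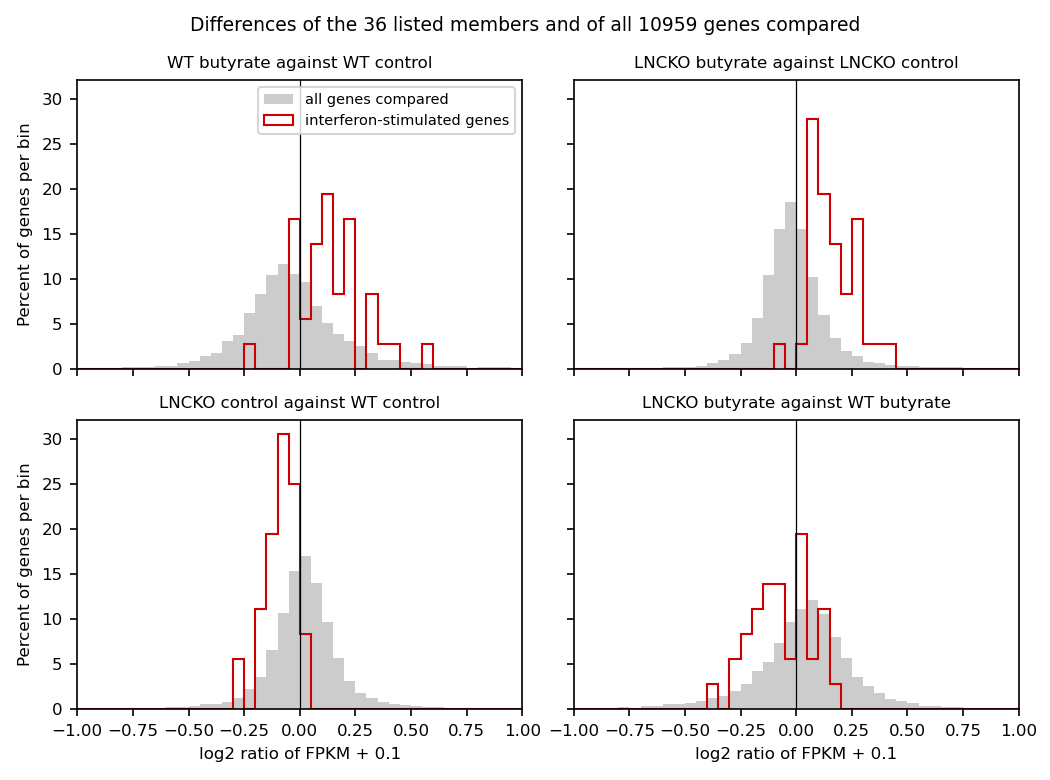
Distribution of the log2 ratio of FPKM + 0.1 over all 10959 genes (grey) and over the 36 members (red line) in the 4 comparisons, as percent of genes per bin. With butyrate the members lie to the right of most genes (medians of 0.14 in WT and 0.13 in LNCKO), and LNCKO against WT they lie to the left (medians of -0.07 without and -0.08 with butyrate).

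Cmpk2 and Rsad2 had the largest differences with butyrate in WT. Both encode enzymes that act on nucleotides: viperin turns CTP into a chain terminator of viral RNA, and Cmpk2 is a mitochondrial nucleotide kinase. Their genes lie next to each other in divergent orientation on chromosome 12 (GRCm38), Rsad2 at chr12:26442746-26456452 on the minus strand and Cmpk2 at chr12:26469204-26479837 on the plus strand, with start sites 12752 bases apart. The FPKM of Cmpk2 was 42.6 and 63.8 in WT without and with butyrate, and 41.8 and 48.8 in LNCKO. The controls were close to each other and both butyrate libraries were above both controls, by 1.498-fold in WT and 1.17-fold in LNCKO. The exact interval from fragment counts was 1.47 to 1.52 in WT and 1.15 to 1.19 in LNCKO. These intervals, as all given here, cover counting error only and not the spread between cultures. Rsad2 was 88.3, 120, 89.8 and 109, again with both butyrate libraries above both controls, at 1.36-fold in WT and 1.21-fold in LNCKO. Of the other enzymes, the exonuclease Isg20 was 14.7, 15.5, 13.1 and 16.8, with a difference of 1.06-fold in WT and 1.28-fold in LNCKO. Samhd1, which removes dNTPs, was 42.0, 41.7, 40.8 and 43.3 and was nearly level.

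The IFIT genes, whose products bind viral RNA and block its translation, lie in a row on chromosome 19 (chr19:34550694-34650009, plus strand). All 4 were higher with butyrate in both genotypes (18.7% of all genes), with a median of 0.18 in WT and 0.31 in LNCKO. Ifit3b was 53.2, 69.3, 43.3 and 58.2 FPKM, a butyrate difference of 1.30-fold in WT and of 1.34-fold in LNCKO. Ifit1 was 45.6, 52.4, 37.6 and 47.1, or 1.15-fold and 1.26-fold. For both genes the LNCKO control library was the lowest of the 4 and the WT butyrate library the highest. Ifit2 was 62.9, 69.9, 56.8 and 68.0, and Ifit3 was 189, 209, 169 and 206, with the same order of libraries. Reads of Ifit3 and Ifit3b are hard to separate, since 31.7% of the windows of 100 bases in Ifit3 exons also occur in Ifit3b, and the split between the pair is uncertain.

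The OAS genes encode enzymes that make 2′-5′ oligoadenylates in response to double-stranded RNA, which activate RNase L, and the related Oasl genes. Of the 6 members, 5 were higher with butyrate in WT (median 0.17) and all 6 in LNCKO (median 0.10). The shares over all genes were 39.3% and 42.2%. Oas2 was 22.3, 28.1, 22.3 and 23.5 FPKM, so the WT butyrate library stood above the other 3, at 1.26-fold in WT against 1.06-fold in LNCKO. Oasl1 was 28.1, 33.3, 27.9 and 33.4, with both butyrate libraries above both controls, at 1.185-fold and 1.195-fold. Oasl2 was 56.7, 66.0, 54.6 and 59.4, and Oas3 was 38.1, 41.1, 36.9 and 39. Oas1a, at 38.0, 37.4, 36 and 38.1, had a butyrate change of -0.02 on the log2 scale in WT, and of 0.03 under median ratio scaling. Oas1g was 18.8, 20.5, 17.0 and 19.0, and the pair is uncertain, since 40.9% of the windows of 100 bases in Oas1a exons also occur in Oas1g.

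Among the members that act in the pathway itself, Stat2 and Irf9, subunits of ISGF3, were both higher with butyrate. Stat2 was 28.5, 35.6, 27.5 and 30.2 FPKM, 1.25-fold higher in WT and 1.10-fold in LNCKO. Irf9 was 27.1, 33.8, 27.5 and 28.8, 1.25-fold and 1.05-fold. In both genes the WT butyrate library stood apart above the other 3, which lay close together. Irf9 shares exon positions with Rnf31 on the same strand, and how the counting treated such positions is not given in the sources used here. Usp18, which removes ISG15 from proteins and dampens the receptor, was 14.7, 16.1, 14.1 and 17.0, or 1.10-fold and 1.21-fold. Irf7, the factor that amplifies interferon production, was 387 and 381 in WT and 356 and 411 in LNCKO, 0.983-fold in WT (interval 0.974 to 0.993) and 1.16-fold in LNCKO (1.15 to 1.17). It was thus among the highest members. Its sign differed between the genotypes as deposited (-0.02 in WT on the log2 scale), but with libraries scaled by their median ratio the WT value was 0.03 and the sign was the same in both. Irf7 shares exon positions with Phrf1 on the other strand, where a count without strand cannot tell the genes apart. In all, 12 members overlap exons of another gene. For Herc6, Irf9, Parp14 and Rtp4 the overlap is on the same strand, where a count with strand cannot tell them apart either.

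**Figure D4:**
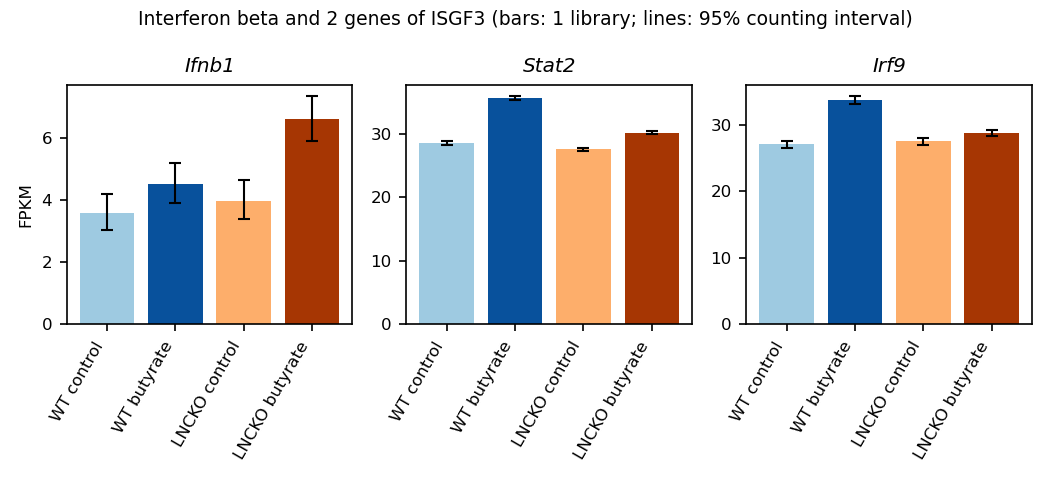
FPKM in the 4 libraries (bars from 0, 1 library each) of Ifnb1 and of the ISGF3 genes Stat2 and Irf9, each on its own axis, with 95% counting intervals as lines. Stat2 and Irf9 are highest in WT butyrate, whereas Ifnb1 is highest in LNCKO butyrate at 6.61.

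Of the 5 listed genes for nucleic acid sensors and RNA-binding enzymes, 4 were higher with butyrate in WT and all 5 in LNCKO. The shares over all genes were 39.3% and 42.2%. Dhx58 (LGP2) was 26.0, 30.1, 25 and 26.9 FPKM and Zbp1, a sensor of Z-form nucleic acid, 37.9, 44.4, 36.1 and 38.2, so both were highest in WT butyrate. Ifih1 was 6.07, 6.07, 5.70 and 6.09, Eif2ak2 (PKR) 10.5, 10.9, 9.55 and 10.2, and the RNA-editing enzyme Adar 10.7, 11.6, 10.4 and 10.7. Over these 5 genes the median was 0.12 in WT and 0.09 in LNCKO. Rigi, which carries the identifier of Ddx58, was 12.9, 12.9, 11.5 and 12.4.

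For the 4 genes of the ISG15 system and the membrane proteins, the butyrate difference was higher in LNCKO than in WT. Isg15 was 259, 288, 235 and 274 FPKM, which is 0.15 higher on the log2 scale in WT and 0.22 in LNCKO, and Herc6 was 3.59, 3.58, 3.22 and 3.70. Bst2 was 181, 184, 168 and 203, or 1.02-fold in WT and 1.21-fold in LNCKO. Ifitm3 was 1179, 1176, 1106 and 1196, so that its libraries lay within a narrow range. The remaining 9 members, Ifi35, Ifi44, Parp14, Phf11d, Rtp4, Slfn5, Slfn8, Trim30a and Xaf1, had medians of 0.08 in WT and 0.12 in LNCKO. With butyrate 8 of them were higher in each genotype, where 39.3% of all genes were higher in WT and 42.2% in LNCKO. Slfn5, of the Schlafen family, was 104, 110, 91.4 and 104 FPKM, and its relative Slfn8 was 26.1, 27.1, 24.6 and 27.3. Trim30a, which restrains Toll-like receptor signalling, was 18.9, 20.8, 17.9 and 19.5. Parp14, an ADP-ribosyltransferase, was 19.6, 21.8, 18.8 and 19.7, and Xaf1, a promoter of apoptosis, was 16.5, 19.1, 16.3 and 17.4. In each of these the LNCKO control library was the lowest. Rtp4 was 3.46, 3.97, 3.18 and 3.46, Phf11d was 11.5, 12.1, 11.3 and 12.2, and Ifi35 was 12.0, 12.5, 12.0 and 13.5. The exception in both genotypes was Ifi44, at 17.8, 15.3, 18.3 and 17.5, which is 0.857-fold in WT and 0.959-fold in LNCKO.

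Without treatment, the members were lower in LNCKO than in WT. Of the 36, 3 were higher in the LNCKO library, where 56.3% of all genes and 55.9% of those with an FPKM of 3 or more were higher, and the median was -0.07 (0.95-fold) against 0.02 for all genes, with a range from -0.30 to 0.03. No member was past 1.5-fold (background 1.55% upwards and 1.51% downwards), and past 1.2-fold 2 were lower, Ifit3b and Ifit1 (5.09% of all genes and 2.35% of those with an FPKM of 3 or more), and 0 were higher (6.42% and 3.13%). The 4 IFIT genes had the lowest values as a family, with a median of -0.22, and the 3 members that were higher were Rsad2, Irf9 and Ifi44. Under butyrate, 14 of 36 members were higher in LNCKO than in WT, where 60.9% of all genes and 64.2% of those with an FPKM of 3 or more were higher. The median there was -0.08 (0.947-fold) against 0.05, with no member past 1.5-fold (background 2.38% upwards and 2.55% downwards) and 1 lower past 1.2-fold, Cmpk2 (9.28% of all genes and 5.15% of those with an FPKM of 3 or more), and 0 higher (12.3% and 9.46%).

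Read over the 4 libraries, LNCKO control was the lowest library for 33 of 36 members, where it was the lowest for 15.7% of all genes. WT butyrate was the highest for 22 members (23.5% of all genes), LNCKO butyrate for 13 (20.4%), LNCKO control for 1, Ifi44 (32.2%), and WT control for 0 (23.9%). The lowest library was WT control for Rsad2 and Irf9 (19.4% of all genes), WT butyrate for Ifi44 (46.4%) and LNCKO butyrate for 0 members (18.5%). The median deviation of the members from their own mean was -0.03 and 0.12 on the log2 scale in WT without and with butyrate, and -0.11 and 0.03 in LNCKO. The LNCKO control library enters both the butyrate comparison in LNCKO and the genotype comparison without treatment. A low library there therefore sets both, and the 35 of 36 and the 3 of 36 are not separate observations. In the same way, each of the other libraries enters 1 comparison of butyrate and 1 of genotype.

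**Figure D5:**
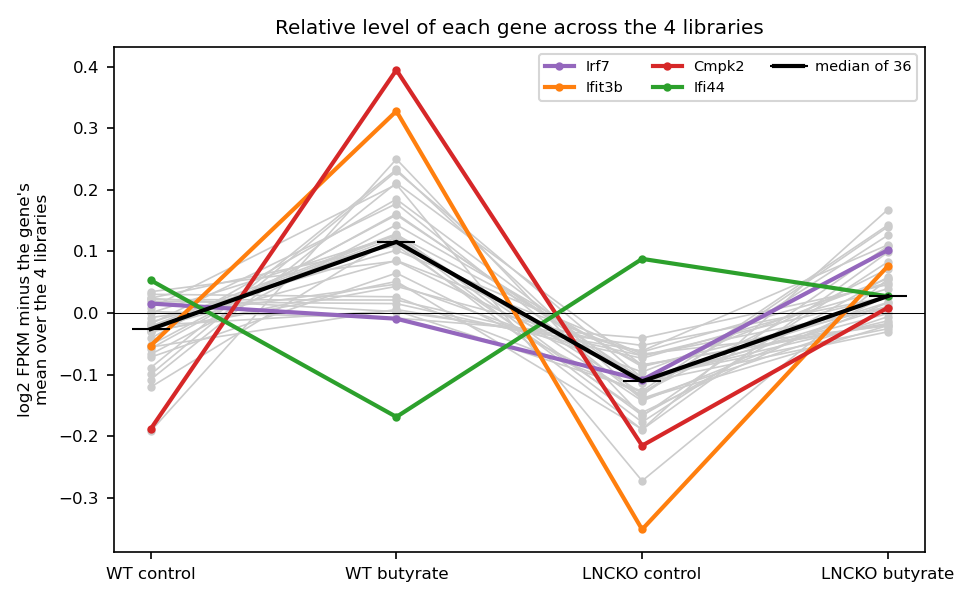
Deviation of each of the 36 members from its own mean over the 4 libraries (log2 FPKM), with 1 line per gene, 4 of them in colour (Irf7, Ifit3b, Cmpk2, Ifi44), and the median in black. The median runs from -0.03 in WT control to 0.12 in WT butyrate, and from -0.11 in LNCKO control to 0.03 in LNCKO butyrate.

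The size of the butyrate difference was also set between the genotypes. The WT change less the LNCKO change had a median of -0.05, against -0.03 over all genes, with 14 members above zero and 22 below, where 43.6% of all genes were above zero, so the members were near the background. The largest difference in favour of WT was 0.36 for Cmpk2, and the largest in favour of LNCKO was -0.27 for Isg20. With 1 library per group neither could be tested.

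Upstream of the members, 4 of 11 named interferon genes were listed, and Ifnb1 (interferon beta, chr4:88522025-88522774, minus strand) was the 1 that passed the filter. Its fragments were 152 and 201 in WT without and with butyrate and 160 and 325 in LNCKO, and its FPKM 3.59, 4.53, 4.00 and 6.61. The difference with butyrate was 1.26-fold in WT (interval 1.02 to 1.57) and 1.65-fold in LNCKO (1.36 to 2.01), so the intervals of the 2 genotypes overlapped. Between the genotypes it was 1.11-fold higher in LNCKO without butyrate (0.885 to 1.40) and 1.46-fold with butyrate (1.22 to 1.75). Ifnb1 thus had its highest value in LNCKO butyrate, whereas WT butyrate was the highest library of most members. Ifnk had 8 fragments in LNCKO butyrate, Ifnl3 had 6 in WT butyrate, and Ifnz was listed at 0 in all libraries.

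The wider list of 19 receptor and signalling genes, which includes Stat2 and Irf9, had medians of -0.05 in WT (7 of 19 higher) and 0.03 in LNCKO (13 of 19), and 0 of them were past 1.5-fold. The 8 inhibitors of the pathway, Usp18 included, had medians of -0.05 (3 of 8 higher) and 0.05 (6 of 8). Over all genes 39.3% were higher in WT, near the shares of both lists there, and 42.2% in LNCKO. The chemokine Cxcl10, which both interferon types induce, was 50.9, 52.5, 36.2 and 51.0, with its lowest value in LNCKO control as for most members. It was read with the genes linked to interferon gamma, which differed in their lowest library. Cxcl9, Irf8 and Ifngr2 were also lowest in LNCKO control, and Ciita and Ifngr1 in LNCKO butyrate. Irf1, Cd274 and Nos2 were lowest in WT control, at 24.2, 13.3 and 0.18 against 27.8, 14.5 and 0.59 in LNCKO control.

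Other interferon-related genes were read as lists beside the members. The 16 interferon-inducible GTPases had medians of 0.09 in WT (11 of 16 higher) and 0.08 in LNCKO (13 of 16). The 11 genes of the p200 family had medians of -0.01 in WT (4 of 11 higher) and 0.21 in LNCKO (11 of 11). Of the genes linked to interferon gamma, 9 passed the filter, with medians of 0.16 in WT (9 of 9 higher) and 0.02 in LNCKO (5 of 9). Over all genes 39.3% were higher with butyrate in WT and 42.2% in LNCKO. For LNCKO control against WT control the median of the p200 family was -0.07 (2 of 11 higher). It was -0.005 for the GTPases (8 of 16) and -0.015 for the interferon gamma genes (3 of 9), where 56.3% of all genes were higher. The p200 gene Ifi208 stood apart, at 3.18-fold in LNCKO against WT without butyrate and 3.86-fold with butyrate. No difference between these lists and the members was tested.

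The butyrate change was also read by whether the promoter held an ISRE core. The 16 members with a match had a median of 0.12 in WT (range -0.02 to 0.44) and 0.15 in LNCKO (0.08 to 0.43). The others with a promoter in the table had a median of 0.10 in WT (-0.22 to 0.58) and 0.15 in LNCKO (-0.06 to 0.35), so the ranges overlapped, and the difference between these groups was not tested. Of the 2 genes with the largest WT differences, Rsad2 has a site as printed above and Cmpk2 has none in its window, which says nothing of sites farther away.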

How the data were processed

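RNA sequencing of BMDMs gave 4 libraries, 1 per group. The authors deposited FPKM values for 16375 genes and no counts. The submitters' processing notes name STAR 2.5.0c, Picard 1.126, bedtools 2.17.0 and HTSeq 0.6.0 and the builds GRCm38 and mm10, without their roles. The methods and the sample labels name different RNA kits and sequencing platforms. From the deposited FPKM, the number of fragments was recovered as FPKM times gene span times library total, with spans of GENCODE M21. Of the 16342 genes matched, 16076 (98.4%) came out whole in all 4 libraries within 0.01 of a fragment. Isg15 was whole on a length of 1342 bases instead of its span of 1395. FPKM over the gene span leaves fold changes of a gene unaltered but understates genes with long introns, so levels between genes used exon length. Exon length joined the exons of all annotated transcripts, and so can still understate a gene whose main transcript is shorter.

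Changes are log2 ratios of FPKM + 0.1 over the 10959 genes whose mean FPKM reached 0.1, with a limit of 1.5-fold, and each list was described by its counts and median. On the log2(FPKM + 0.1) scale the change of low genes is understated. The members, lists and tests were chosen with earlier results of these data known. Genes named are members, with their role, and genes of the pathway lists. Intervals are exact Clopper-Pearson intervals at 95% on fragments (reads without molecular identifiers), and cover counting error only. The recovery of library totals and the calls at 1.5-fold were tried on simulated counts that held no spread between cultures. The list medians, the counts over both genotypes and the sequence searches were not tried in this way. The tools were matplotlib 3.10.9, pandas 2.3.3, scipy 1.17.1 and numpy 2.4.6 under Python 3.11.15. Sequences are from RefSeq.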

Additional observations from a re-analysis of the deposited data

Results flagged for a closer look

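Irf7 is listed here because its butyrate difference had opposite signs in the 2 genotypes. Its WT change less its LNCKO change was -0.24 on the log2 scale, from 387 to 381 FPKM in WT and from 356 to 411 in LNCKO. The difference was not tested, since each group had 1 library, and the WT change itself is -0.02 (0.983-fold). With libraries scaled by their median ratio the WT change of Irf7 is 0.03, so the signs are then the same. Herc6, Oas1a, Ifih1, Samhd1 and Ifitm3 were also lower in WT and higher in LNCKO, with WT changes between -0.02 and -0.00068, and were higher in both under that scaling. Ifi44 was lower with butyrate in both genotypes.

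The Y-linked genes, which belong to no comparison above, were read in all libraries. Their summed fragments were 15373 in LNCKO control and 20182 in LNCKO butyrate against 203 in WT control and 132 in WT butyrate. Genotype and sex cannot be told apart in these libraries.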

How the results depend on the processing

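No paired analysis was possible because each group had 1 library, and no block could be fitted. The library names of all groups hold the same number, and the sample labels read here do not say what it stands for. Under the other pseudocounts, filters and scalings, the median of the members lay between 0.08 and 0.19 in WT, between 0.11 and 0.15 in LNCKO, between -0.09 and -0.06 for LNCKO control against WT control and between -0.13 and -0.04 under butyrate, and none of these medians changed sign. With libraries scaled by their median ratio, 1 member (Cmpk2) was past 1.5-fold in WT, against 0, and 35 members were higher with butyrate in both genotypes. With values rescaled to a common sum, 26 were. At a limit of 1.2-fold, added after seeing the data, 6 members were higher in WT, 7 in LNCKO, 2 were lower in LNCKO control than in WT control and 1 under butyrate. Without the 12 members that overlap exons of another gene (added after seeing the data), 19 of 24 were higher in both genotypes, against 29 of 36. Of 1152 values of single members under the alternatives, 1152 moved by less than 0.1 on the log2 scale, although the 6 members other than Ifi44 that were lower with butyrate in WT turned higher under median ratio scaling. Among the medians of the other lists, 378 moved by less than this and 70 by more, 6 of them of the interferon genes and the others of cell type markers and Y-linked genes. With 1 library per group, the spread between cultures is unknown and the changes cannot be set against it.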
